A study of Mus musculus with 12 samples.

Results

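The genes described here are 10 mouse genes that encode enzymes and 1 partner protein of prostaglandin and leukotriene synthesis: Pla2g4a, Ptgs1, Ptgs2, Ptges, Hpgd, Alox5, Alox5ap, Lta4h, Ltc4s and Alox15. They were taken as a named list from a table of 55401 genes, and all 10 were found in it. The list was chosen by measured values in part, since Ptgs2 was included as a gene that was higher, and Alox15 as a gene that was lower, in cells labelled EKO than in cells labelled CtrV. The difference between the lines is therefore a description for every one of the 10 genes and carries no test. Of the 10, 9 passed the filter on low values, which asked for a log2 CPM above 0 (about 1 count per 1e6 counts of the library) in at least 2 libraries, and Ptges did not.

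The cells were Sp37A3, a dendritic cell line from C57BL/6 mouse spleen grown with GM-CSF and M-CSF. EKO cells carried a CRISPR-Cas9 vector against Siglece, the gene of the inhibitory sialic acid receptor Siglec-E, and were a pool of single clones. CtrV cells carried the same vector without a guide and are labelled as expressing Siglec-E. RNA was sequenced from 12 libraries in 4 groups of 3: CtrV unpulsed, CtrV OVA-pulsed, EKO unpulsed and EKO OVA-pulsed. Pulsed cells received ovalbumin (OVA), the model protein antigen, at 0.1 mg/ml for 2 h. All 4 groups, the unpulsed ones included, were stimulated with lipopolysaccharide (LPS), and RNA was taken 24 h later, so no group shows the enzymes without LPS. Nothing in the labels says that replicates were separate cultures, so the p-values measure the spread between these samples only.

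Eicosanoids are lipid mediators made from arachidonic acid, which cytosolic phospholipase A2 (Pla2g4a) releases from membranes. The cyclooxygenases Ptgs1, usually present constitutively, and Ptgs2, usually induced by inflammatory stimuli, turn arachidonic acid into prostaglandin H2. Terminal synthases such as Ptges turn that into prostaglandin E2 and other prostanoids, and Hpgd inactivates them. Lipoxygenases open the other branch, where Alox5 with its partner Alox5ap makes leukotriene A4, Lta4h and Ltc4s turn that into leukotriene B4 and leukotriene C4, and Alox15 makes hydroperoxy fatty acids and precursors of lipoxins.

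Ptgs2 lies on the plus strand of chromosome 1 at chr1:150100031-150108227 (GRCm38). Pla2g4a lies on the minus strand of the same chromosome, with its annotated start 138.7 kb before Ptgs2. The phospholipase and the inducible cyclooxygenase are thus neighbours with opposite orientation. The promoters of the 2 cyclooxygenase genes and of Alox5 are shown because they start the transcripts that moved apart between the lines (Ptgs2 and Ptgs1) and the one that stayed nearest to level (Alox5). RefSeq promoter windows of build GRCm38.p6, 250 bases before the start site and 50 after it, matched 8 of the 10 genes, with none for Alox15 and Alox5ap. Capitals mark the motifs searched on both strands, which were C/EBP (TTGCNNAA), the CRE half-site (TGACG), the E-box (CACGTG), the GC box (GGGCGG), AP-1 (TGANTCA), the TATA box (TATAAA) and the NF-kB consensus.
Ptgs2, chr1:150099781-150100080, plus strand: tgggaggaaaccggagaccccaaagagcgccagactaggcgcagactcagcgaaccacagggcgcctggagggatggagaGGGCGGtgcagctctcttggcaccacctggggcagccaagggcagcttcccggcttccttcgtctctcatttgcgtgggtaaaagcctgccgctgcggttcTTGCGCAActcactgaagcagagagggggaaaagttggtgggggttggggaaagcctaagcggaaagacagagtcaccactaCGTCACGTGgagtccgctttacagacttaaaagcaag
Ptgs1, chr2:36230176-36230475, plus strand: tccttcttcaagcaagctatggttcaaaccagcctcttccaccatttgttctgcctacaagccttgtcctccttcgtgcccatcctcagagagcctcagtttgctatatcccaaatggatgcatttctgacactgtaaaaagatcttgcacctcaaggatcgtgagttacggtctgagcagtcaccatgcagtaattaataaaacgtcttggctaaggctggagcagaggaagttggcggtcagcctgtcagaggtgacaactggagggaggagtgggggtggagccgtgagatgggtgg
Alox5, chr6:116461129-116461428, minus strand: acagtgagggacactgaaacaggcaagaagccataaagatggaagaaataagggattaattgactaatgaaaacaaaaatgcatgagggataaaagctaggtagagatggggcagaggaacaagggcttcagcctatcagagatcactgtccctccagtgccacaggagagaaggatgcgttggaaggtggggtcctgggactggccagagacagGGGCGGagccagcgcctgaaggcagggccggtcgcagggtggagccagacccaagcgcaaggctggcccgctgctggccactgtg

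The Ptgs2 window held a C/EBP match in both orientations at bases -69 to -62 from the start site, a GC box at -170 to -165, and a CRE half-site and an E-box that overlap each other by bases 17 to 18 of the transcript. Of all 32851 promoter windows of this length, 10.8% held the C/EBP letters, 20.8% the CRE half-site, 7.15% the E-box and 35.7% the GC box. The Ptgs1 window held none of the motifs, and the Alox5 window held 1 GC box at -35 to -30. None of the windows of these 8 genes held the AP-1 letters (7.81% of all windows) or the NF-kB consensus (8.46%). The TATA box letters, in 13.6% of all windows, were found for Hpgd and Pla2g4a. For Hpgd they lay after the start site, at bases 5 to 10, and the end of that window was not found in its annotated transcripts. For Pla2g4a they lay at -200 to -195 in reverse orientation, in 1 of its windows only. These matches describe the letters in the window only.

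Library totals ran from 27116201 to 39698572 counts. Siglece, the targeted gene, was not lower at the RNA level in the libraries labelled EKO, where it measured 208 ± 36.6 CPM unpulsed and 195 ± 17.98 CPM pulsed, against 155 ± 6.13 and 156 ± 6.30 CPM in CtrV (SD, n = 3). These counts cover all exons and do not show whether protein is made, so EKO is used here as the label. Principal components were taken from the 25% of tested genes that varied most. On the second component, which held 7.11% of the variance of those genes, replicate 1 of EKO stood apart in both treatments. It lay at 18.8 and 20.5, against -18.3 to -1.15 for the other 4 EKO libraries. Of 14 dendritic cell markers 13 passed the filter, but Clec9a was at 0 or 1 count. Of 8 macrophage markers 7 passed, with Mrc1 at 0, and their summed level was 1655 to 1769 CPM in unpulsed CtrV, 1624 to 1837 in pulsed CtrV, 2271 to 2548 in unpulsed EKO and 2356 to 2530 in pulsed EKO. Of 5 platelet markers 3 passed, with a summed level of 7.27 to 12.2 CPM in CtrV and 11.5 to 16.2 CPM in EKO libraries. These 3 differed in direction. In unpulsed CtrV and EKO cells Pf4 averaged 1.86 and 4.50 CPM, Ppbp 6.64 and 7.15, and Itga2b 2.05 and 1.44. Of 9 mast cell and basophil markers only Hdc passed, and of 5 eosinophil markers only Siglecf and Il5ra. No marker of neutrophils, B cells, T cells or fibroblasts passed. The part of these cell type markers in the results was not tested, and in bulk RNA fewer cells of a type and less RNA per cell cannot be told apart.

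Ptgs2 RNA was low in CtrV cells, at 51 to 69 counts per library unpulsed and 21 to 121 pulsed, and far higher in EKO cells. In unpulsed cells the 3 CtrV libraries held 2.01, 2.47 and 1.75 CPM and the 3 EKO libraries 48.6, 79.5 and 48.8 CPM. In pulsed cells the CtrV libraries held 3.27, 2.18 and 0.696 CPM and the EKO libraries 72.4, 88.9 and 58.3 CPM. The lowest EKO library was above the highest CtrV library in both treatments. The fitted ratio was 28.2-fold unpulsed (log2 4.82 ± 0.26, standard error, n = 3 against 3) and 35.0-fold pulsed (5.13 ± 0.25). The pulsed ratio leaned on the spread of the CtrV libraries, and without CtrV pulsed replicate 1 it was 5.74 on the log2 scale. With replicate 1 left out of all groups, the values were 4.92 unpulsed and 5.68 pulsed.

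Ptgs1, the constitutive cyclooxygenase, moved the other way. The unpulsed libraries held 345, 337 and 331 CPM in CtrV and 83.2, 58.1 and 61.2 CPM in EKO. Pulsed libraries held 284, 367 and 392 CPM in CtrV and 62.7, 53.8 and 45.0 CPM in EKO. No EKO library reached the lowest CtrV library. The fitted level was 5.03 times lower in unpulsed EKO cells (log2 -2.33 ± 0.16) and 6.52 times lower in pulsed EKO cells (-2.70 ± 0.17). Opposite-strand exons of Gm43621 cover 3.81% of the exon bases of Ptgs1, but that gene had at most 5 counts in any library.

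**Figure D1:**
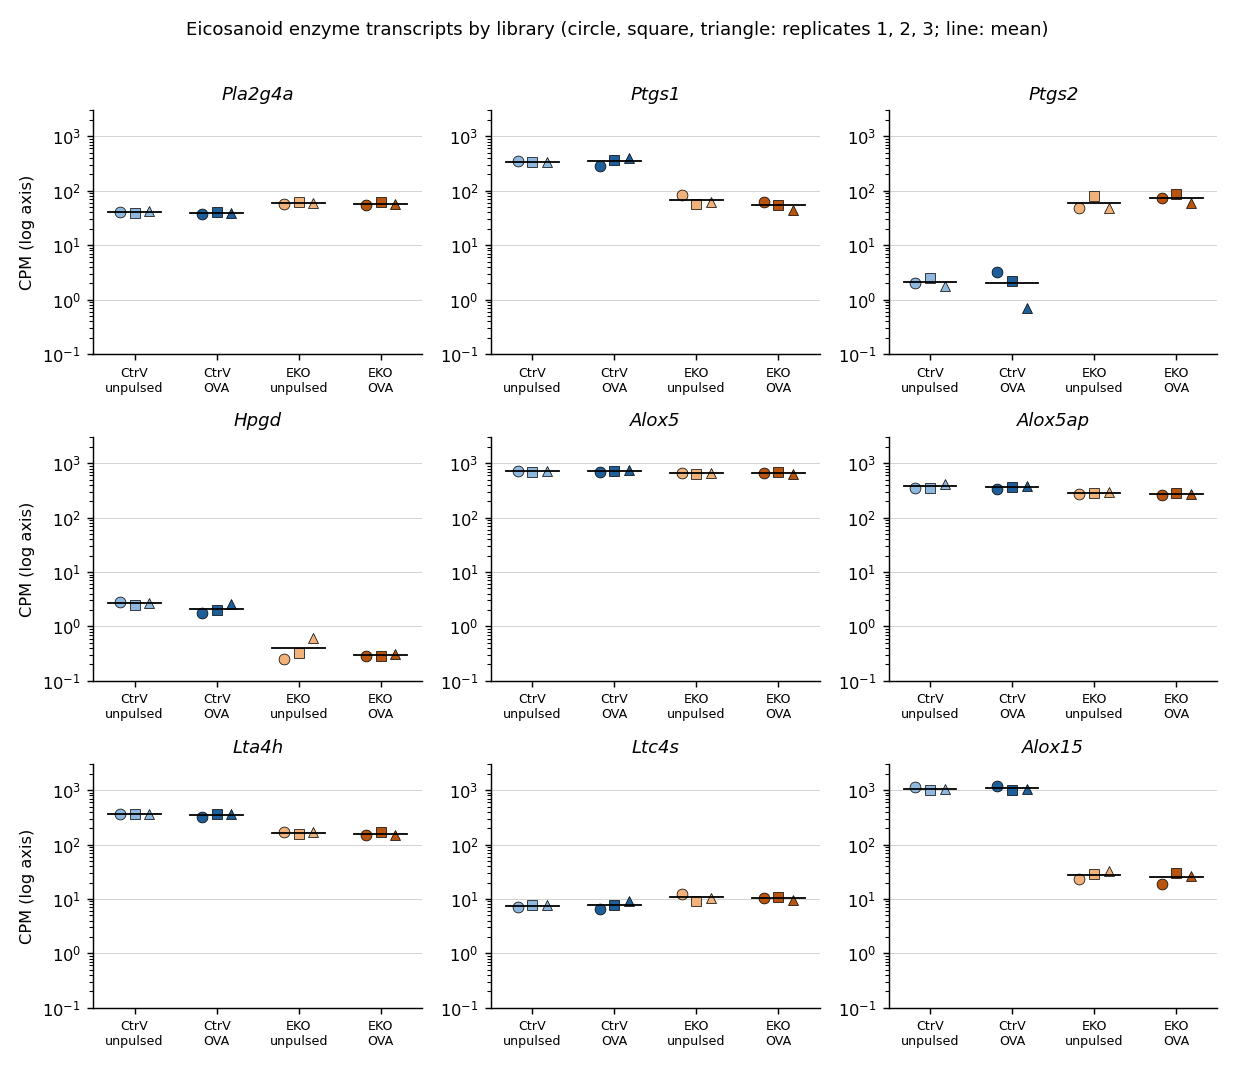
CPM of 9 eicosanoid enzyme genes in each of the 12 libraries, on log axes of equal range, with circles, squares and triangles for replicates 1, 2 and 3 and a line at the mean of each group of 3 (Ptges, at 0 to 6 counts, is not drawn). Ptgs2 sits between 0.696 and 3.27 CPM in CtrV and between 48.6 and 88.9 CPM in EKO, Ptgs1, Hpgd, Lta4h and Alox15 sit lower in EKO, and Alox5 lies at nearly one height throughout.

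Because the 2 cyclooxygenases catalyse the same step, their levels were set side by side per kilobase of exon. Ptgs2 made up 0.519% ± 0.0894 of the summed Ptgs1 and Ptgs2 level in unpulsed CtrV cells and 0.539% ± 0.410 in pulsed CtrV cells (SD, n = 3). In unpulsed EKO cells the share was 42.4% ± 10.4, with libraries at 33.1%, 53.7% and 40.3%. In pulsed EKO cells it was 53.4% ± 4.54, with libraries at 49.5%, 58.4% and 52.3%. The RNA of the inducible enzyme thus went from under 1% of the pair in all 6 CtrV libraries to at least 33.1% in all 6 EKO libraries. The pulsed and unpulsed EKO libraries overlapped in this share.

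Downstream of the cyclooxygenases, RNA of Ptges, the inducible prostaglandin E synthase, was scarcely present. Its counts in replicates 1, 2 and 3 were 1, 1 and 0 in unpulsed CtrV, 0, 1 and 0 in pulsed CtrV, 0, 2 and 5 in unpulsed EKO and 1, 6 and 0 in pulsed EKO. Most of these lie at or under the floor of 3 counts, so no fold is given. The other prostaglandin E synthases of the wider pathway list, named after their values were seen, were measured in every group. Ptges3, a cytosolic synthase that is also a co-chaperone, averaged 112 CPM in unpulsed CtrV and 116 CPM in unpulsed EKO cells, and Ptges2 averaged 11.3 and 10.8 CPM. Neither passed the test between the lines, with adjusted p = 0.49 and 0.44 unpulsed and 0.094 and 0.23 pulsed (edgeR).

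Hpgd, which oxidises prostaglandins to inactive keto forms, was low everywhere and lower in EKO. Unpulsed CtrV libraries held 2.86, 2.47 and 2.68 CPM and unpulsed EKO libraries 0.257, 0.330 and 0.612 CPM. Pulsed CtrV libraries held 1.76, 2.02 and 2.62 CPM and pulsed EKO libraries 0.288, 0.290 and 0.307 CPM. The EKO values rest on 7 to 20 counts per library. The groups did not overlap, and the fitted level was 6.57 times lower unpulsed (log2 -2.72 ± 0.23) and 7.09 times lower pulsed (-2.83 ± 0.24). Hpgd passed the filter on low values through the CtrV libraries alone.

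Pla2g4a, which feeds both branches with arachidonic acid, was moderately higher in EKO. The unpulsed libraries held 39.9, 38.9 and 42.8 CPM in CtrV and 58.1, 62.4 and 60.3 CPM in EKO. The pulsed libraries held 37.5, 39.9 and 38.3 CPM in CtrV and 55.5, 61.7 and 56.7 CPM in EKO. Replicates lay close together and the lines did not overlap. The ratio was 1.49-fold unpulsed (log2 0.57 ± 0.05) and 1.503-fold pulsed (0.59 ± 0.05).

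In the 5-lipoxygenase branch the enzyme that opens it stayed nearly level. Alox5 held 729, 695 and 731 CPM in unpulsed CtrV and 668, 646 and 657 CPM in unpulsed EKO, and 682, 717 and 762 CPM against 666, 689 and 637 CPM when pulsed. The pulsed groups overlapped and the unpulsed groups did not, and the differences were -0.13 ± 0.06 and -0.12 ± 0.06 on the log2 scale, unpulsed and pulsed. Alox5ap, the membrane protein that presents arachidonic acid to Alox5, held 354, 357 and 419 CPM in unpulsed CtrV and 274, 289 and 297 CPM in unpulsed EKO. Pulsed libraries held 332, 366 and 383 CPM in CtrV and 256, 285 and 273 CPM in EKO. It was thus lower in EKO without overlap, by -0.39 ± 0.06 unpulsed and -0.41 ± 0.06 pulsed on the log2 scale. Opposite-strand exons of Gm19719 cover 13.3% of Alox5ap, but that gene had at most 4 counts.

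The enzymes that turn leukotriene A4 into its 2 active products differed in direction. Lta4h, the hydrolase that makes leukotriene B4, held 358, 359 and 361 CPM in unpulsed CtrV and 172, 154 and 168 CPM in unpulsed EKO. In pulsed cells it held 323, 359 and 370 CPM in CtrV and 151, 167 and 148 CPM in EKO. Every EKO library was below every CtrV library, with a fitted level 2.18 times lower unpulsed (log2 -1.12 ± 0.07) and 2.25 times lower pulsed (-1.17 ± 0.07). Ltc4s, the synthase that adds glutathione to make leukotriene C4, was less abundant, at 7.23, 7.66 and 7.66 CPM in unpulsed CtrV and 12.4, 9.04 and 10.6 CPM in unpulsed EKO. Pulsed libraries held 6.40, 7.67 and 9.18 CPM in CtrV and 10.4, 10.8 and 9.56 CPM in EKO. The lowest EKO library exceeded the highest CtrV library only narrowly when pulsed, and the difference was 0.50 ± 0.14 unpulsed and 0.41 ± 0.14 pulsed on the log2 scale, or 0.36 and 0.28 with replicate 1 left out. Exons of Gm26542 on the opposite strand cover 26.4% of Ltc4s, and that gene had 4 to 15 counts against 205 to 399 for Ltc4s. Whether counting used the strand is not stated, so reads from these overlapping stretches may be shared.

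Alox15 was far lower in EKO cells. The unpulsed CtrV libraries held 1126, 1000.3 and 1069 CPM and the unpulsed EKO libraries 22.8, 28.8 and 32.1 CPM. When pulsed, CtrV libraries held 1181, 1003 and 1046 CPM and EKO libraries 18.5, 30.5 and 26.4 CPM. Both lines expressed the gene, with at least 622 counts in every EKO library, yet the highest EKO library was far below the lowest CtrV library. The fitted level was 38.4 times lower unpulsed (log2 -5.26 ± 0.18) and 43.4 times lower pulsed (-5.44 ± 0.19). Left without replicate 1, the values were -5.09 and -5.17.

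Against Alox5, the other lipoxygenase expressed, Alox15 made up 71.3% ± 0.760 of the summed level per kilobase in unpulsed CtrV and 71.4% ± 2.58 in pulsed CtrV cells. Its share was 6.64% ± 1.11 in unpulsed EKO and 5.94% ± 1.32 in pulsed EKO cells (SD, n = 3). Eosinophils are a known site of Alox15 expression in other settings, so their markers were read beside it. Epx and Prg2, which encode eosinophil granule proteins, were at 0 counts in all 12 libraries. Il5ra averaged 3.57 CPM in unpulsed CtrV and 0.195 CPM in unpulsed EKO, and Siglecf averaged 9.08 and 17.0 CPM. The EKO values of Il5ra rest on 1 to 8 counts per library, so it reached the filter through CtrV alone. Ccr3, the remaining marker, was at 0 to 5 counts.

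**Figure D2:**
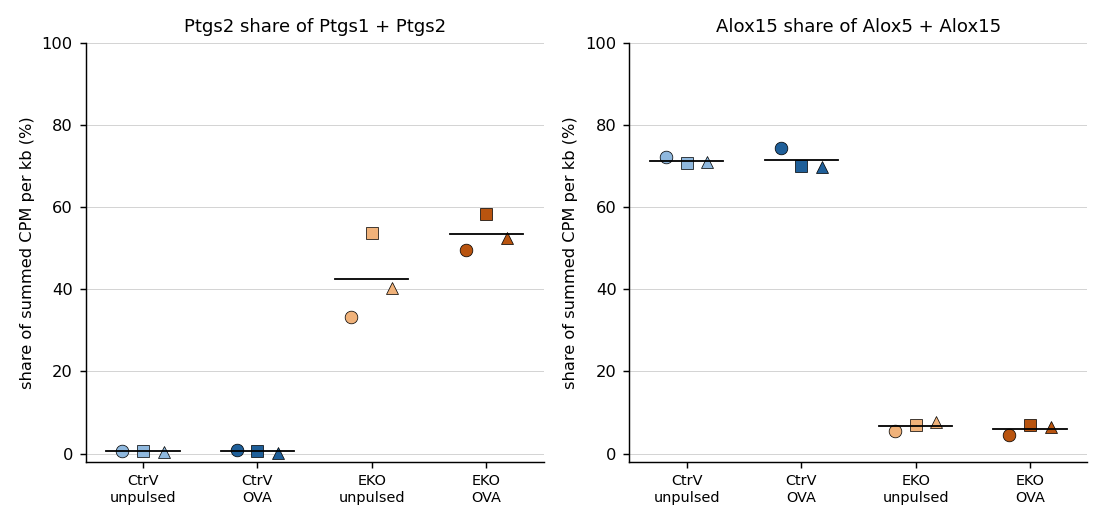
Share of Ptgs2 in the summed level of Ptgs1 and Ptgs2 (left) and of Alox15 in the summed level of Alox5 and Alox15 (right), in percent of CPM per kilobase, for each of the 12 libraries, with a line at the mean of each group. The Ptgs2 share is under 1% in all 6 CtrV libraries and 33.1% to 58.4% in the EKO libraries, and the Alox15 share is 69.7% to 74.3% in CtrV and 4.43% to 7.55% in EKO.

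Per kilobase of exon, the order of the 10 genes in unpulsed CtrV cells was Alox15 (434 ± 25.7 CPM per kb), Alox5ap (265 ± 25.6), Alox5 (175 ± 4.96), Ptgs1 (86.9 ± 1.79), Lta4h (58.9 ± 0.246), Ltc4s (7.41 ± 0.248), Pla2g4a (6.34 ± 0.312), Hpgd (1.59 ± 0.114), Ptgs2 (0.454 ± 0.0795) and Ptges. Pulsed CtrV cells had the same order, and in neither group did libraries of neighbours in that order overlap. Ptges, with 0 or 1 count in each CtrV library, lay under the floor. In unpulsed EKO cells Alox5ap (202 ± 8.17) and Alox5 (160 ± 2.67) led, followed by Lta4h (27.01 ± 1.503). Below them Ptgs1 (17.4 ± 3.52), Ptgs2 (12.9 ± 3.88), Alox15 (11.4 ± 1.92), Ltc4s (10.5 ± 1.64) and Pla2g4a (9.43 ± 0.337) each overlapped with the next by library. In pulsed EKO cells Ptgs2 (16.0 ± 3.35) and Ptgs1 (13.9 ± 2.28) stood in the reverse order and overlapped.

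Counted together, 8 of the 9 genes tested had an adjusted p under 0.05 in each line comparison, 3 higher and 5 lower in EKO. This count comes from the comparison that chose the list, so nothing is read from it. In the background of 14079 genes, 47.0% were called in pulsed cells (25.1% higher, 21.9% lower) and 46.4% in unpulsed cells (24.5% higher, 21.9% lower). The groups did not overlap for 8 of 9 genes when pulsed and 9 of 9 when unpulsed, beside 52.9% and 47.1% of all genes tested. The median log2 difference of the 9 genes was -0.41 pulsed and -0.39 unpulsed, beside 0.00 over all genes tested.

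**Figure D3:**
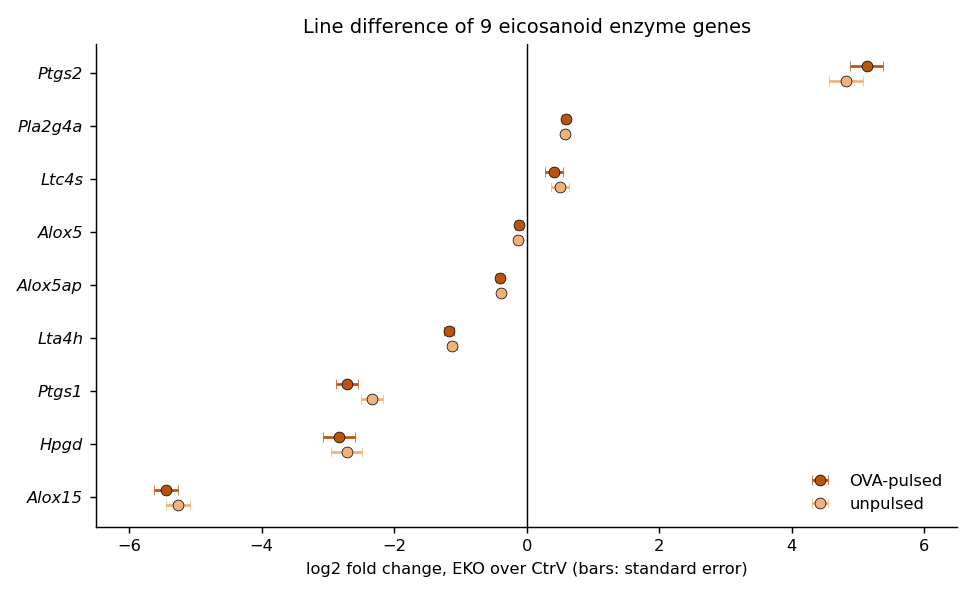
Log2 fold change of EKO over CtrV for 9 eicosanoid enzyme genes in OVA-pulsed (dark) and unpulsed (light) cells, with bars of 1 standard error from the edgeR fit, 3 libraries a group. The values run from -5.44 for Alox15 to 5.13 for Ptgs2, and for each gene the pulsed and unpulsed values lie close together.

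Whether OVA pulsing changed these genes was a question the choice of the list did not touch, and it was tested. None of the 9 genes passed in CtrV cells, in EKO cells or in the average of both lines, at an adjusted p under 0.05 in edgeR, and none had an unadjusted p under 0.05. DESeq2 and limma voom likewise called none of them. Over all 14079 genes the share called was 0% in each of these comparisons, which is the background for the count of 0 among these genes. For Ptgs2 the pulsed over unpulsed difference was 0.01 on the log2 scale in CtrV (95% interval -0.76 to 0.77) and 0.32 in EKO (-0.08 to 0.72). Without CtrV pulsed replicate 1 the CtrV value was -0.60, also not called. For Alox15 it was 0.02 (-0.32 to 0.35) in CtrV and -0.16 (-0.52 to 0.20) in EKO, and for Ptgs1 0.05 (-0.29 to 0.39) and -0.32 (-0.67 to 0.03). For Alox5 it was 0.00 (-0.12 to 0.13) and 0.02 (-0.11 to 0.14). Changes of 2-fold in either direction lie outside the intervals of 7 of the genes in both lines. No such bound is given for Ptgs2 in CtrV cells, where 1 library moved the value, or for Hpgd in EKO cells, with the interval -1.19 to 0.29.

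**Figure D4:**
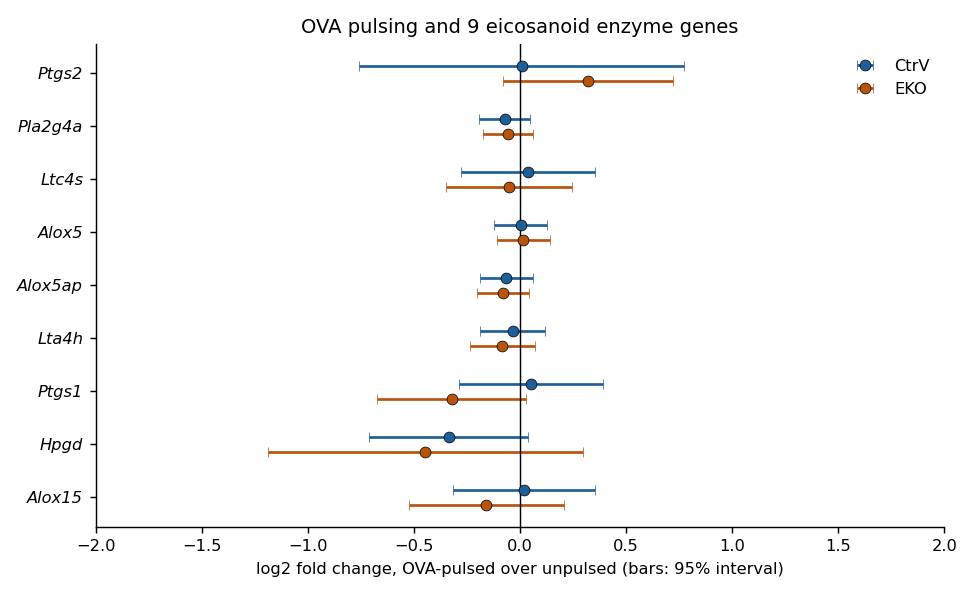
Log2 fold change of OVA-pulsed over unpulsed cells for the same 9 genes in CtrV (blue) and EKO (orange), with 95% intervals from the edgeR fit, 3 libraries a group. Every interval includes 0, and the widest are those of Ptgs2 in CtrV (-0.76 to 0.77) and Hpgd in EKO (-1.19 to 0.29).

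The dependence of the line difference on pulsing, tested as an interaction, was also not called for any of the 9 genes, beside 0% of all genes. Its estimate was 0.31 for Ptgs2 (95% interval -0.56 to 1.18), -0.37 for Ptgs1 (-0.86 to 0.12), -0.18 for Alox15 (-0.67 to 0.32) and -0.11 for Hpgd (-0.91 to 0.70), each with an adjusted p of 1. Without CtrV pulsed replicate 1 the Ptgs2 estimate was 0.93, also not called. For Alox5, Alox5ap, Lta4h, Ltc4s and Pla2g4a the estimates lay between -0.09 and 0.02. The Ptgs2 interval still held values of up to 1.18 on the log2 scale.

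The wider pathway was read from a list of 95 further genes, all found in the table, of which 55 passed the filter. Between the lines 37 of the 55 were called when pulsed (20 higher and 17 lower in EKO) and 41 when unpulsed (22 higher and 19 lower), beside 47.0% and 46.4% of all genes tested. Of the 55, 6 reached the filter through 1 line alone, 4 through EKO (Pla2g4f, Fpr1, Fpr2 and Ggt5) and 2 through CtrV (Mgst3 and Tbxas1). Such genes had to differ between the lines, so they are given below by their values, with no p. The other 49 held 31 of the pulsed and 35 of the unpulsed calls. The median log2 difference of the 55 genes was 0.10 pulsed and 0.08 unpulsed, beside 0.00 over all genes tested. In the pulsing comparison averaged over both lines none of them was called, and none had an unadjusted p under 0.05.

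Among 29 genes of arachidonate release and recycling, 14 were tested and 9 called when pulsed, 4 higher and 5 lower, beside 47.0% of all genes. Of the 4 higher, Pla2g4f had reached the filter through EKO alone, so its call is not read as a result. Pla2g4f, another cytosolic phospholipase A2, held 0.365 to 1.13 CPM in pulsed CtrV libraries and 6.05 to 18.9 CPM in pulsed EKO libraries (log2 4.00 ± 0.27). Faah, which hydrolyses arachidonoyl ethanolamide, rose by 1.52 ± 0.15 on the log2 scale (adjusted p = 1.8e-05).

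Of 11 terminal prostanoid synthases, 8 were tested and 5 called in pulsed cells, 2 higher and 3 lower, a share near the 47.0% of all genes. Of the 3 lower, Tbxas1 had reached the filter through CtrV alone, so its call is not read as a result. Tbxas1, thromboxane synthase, held 0.796 to 0.973 CPM in pulsed CtrV and 0.290 to 0.430 CPM in pulsed EKO libraries. Cbr3, a carbonyl reductase, was lower with -1.54 ± 0.13 (adjusted p = 6.1e-06), and Prxl2b, a prostaglandin F synthase, was higher with 1.31 ± 0.19 (adjusted p = 0.00024). Ptgr1, a reductase that inactivates leukotriene B4 and the products of Hpgd, was lower with -1.51 ± 0.12 (adjusted p = 3.5e-06). It was 1 of 2 called among 4 tested inactivation and transport genes, both of them lower, beside 47.0% of all genes called and 21.9% called lower.

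Of 9 prostanoid receptors 2 passed the filter, both receptors of prostaglandin E2, and they changed in opposite directions. Ptger3 measured 79.5, 69.8 and 69.9 CPM in unpulsed CtrV and 27.03, 28.8 and 30.03 CPM in unpulsed EKO libraries (log2 -1.35 ± 0.07, adjusted p = 1.5e-07). Ptger4 measured 46.5, 46.6 and 33.3 CPM and 92.4, 95.3 and 80.9 CPM (1.11 ± 0.12, adjusted p = 2.6e-05). In pulsed cells the differences were -1.50 ± 0.07 and 1.03 ± 0.11.

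Past leukotriene A4, 7 of 11 conversion and breakdown genes were tested. In pulsed cells 4 were called, 1 higher and 3 lower, again near the 47.0% of all genes. The 1 higher gene, Ggt5, had reached the filter through EKO alone, and Mgst3, 1 of the 3 lower, through CtrV alone. Their calls are therefore not read as a result. Mgst3, a glutathione transferase related to Ltc4s, was at 1.29 to 1.51 CPM in pulsed CtrV and 0.184 to 0.354 CPM in pulsed EKO. Ggt5, which converts leukotriene C4 to leukotriene D4, was at 0.567 to 0.906 CPM in pulsed CtrV and 3.26 to 3.47 CPM in pulsed EKO.

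All 5 tested of 9 leukotriene and resolving mediator receptors were called in both treatments, 4 higher and 1 lower, beside 47.0% of all genes pulsed and 46.4% unpulsed, and 2 of the 4 had reached the filter through EKO alone. Cysltr2, a receptor of cysteinyl leukotrienes, was higher with 2.55 ± 0.19 when pulsed (adjusted p = 2.2e-06), and Gpr18 with 2.57 ± 0.12 (adjusted p = 7.0e-08). The 2 genes that reached the filter through EKO alone were the formyl peptide receptors Fpr1 and Fpr2, the second of which also binds lipoxin A4. Pulsed CtrV libraries held 0.166 to 0.351 CPM of Fpr1 and 0.332 to 0.703 CPM of Fpr2, and pulsed EKO libraries 1.39 to 2.89 and 1.75 to 2.95 CPM.

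Of the 5 other lipoxygenases none passed the filter, so Alox5 and Alox15 were the only lipoxygenases tested. Alox12e was the most abundant of the 5, with 7 to 18 counts in CtrV libraries and 0 to 2 in EKO libraries. Among 16 factors listed because they act on these enzymes, 15 were tested and 10 called in pulsed cells, 8 higher and 2 lower, beside 25.1% higher and 21.9% lower of all genes. Cebpd, a C/EBP factor that binds the Ptgs2 promoter in other cells, was higher with 1.23 ± 0.13 (adjusted p = 2.1e-05), and Pparg, a receptor for oxidised fatty acids, with 1.07 ± 0.12 (adjusted p = 3.7e-05). Il4ra, the receptor chain through which interleukin 4 induces Alox15 in monocytes, was lower in both treatments, with -1.05 ± 0.07 unpulsed (adjusted p = 1.5e-06) and -0.97 ± 0.07 pulsed (adjusted p = 2.4e-06).

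**Figure D5:**
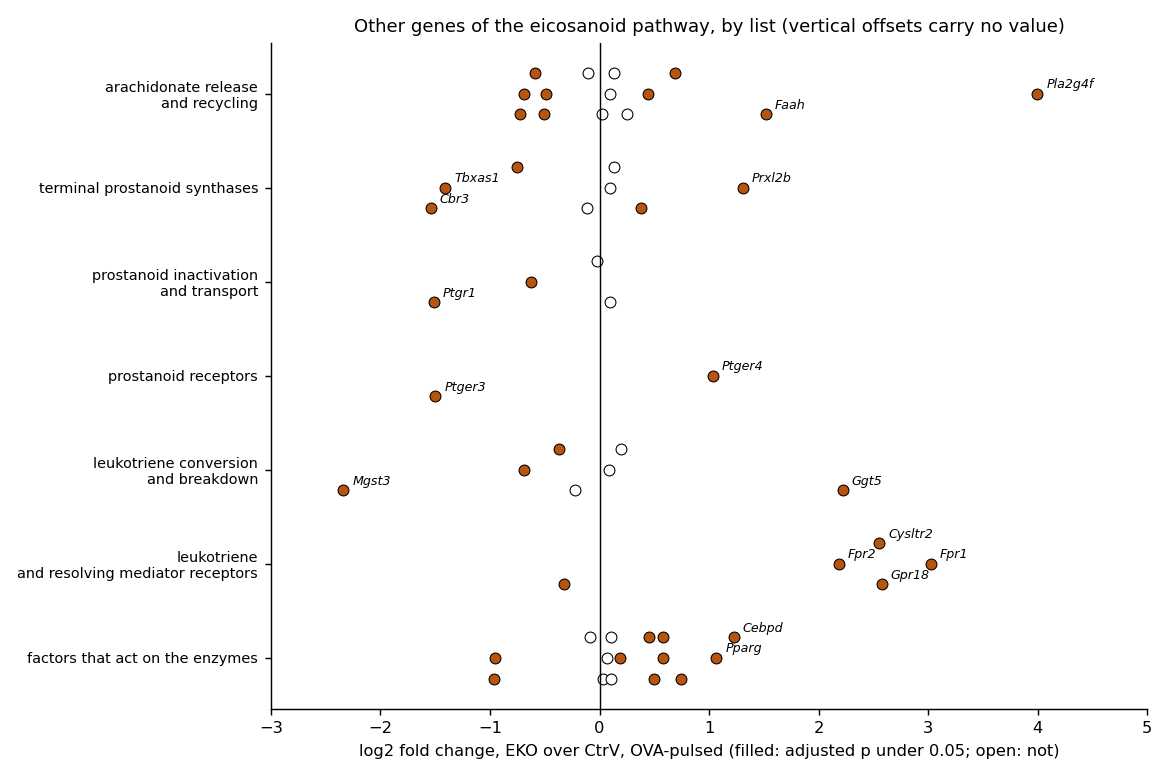
Log2 fold change of EKO over CtrV in OVA-pulsed cells for 55 further genes of the eicosanoid pathway in 7 lists, filled where the adjusted p was under 0.05 and open where not, with names on called genes that differed by at least 1 (at most 5 a list). Pla2g4f, Fpr1, Fpr2, Ggt5, Mgst3 and Tbxas1 are filled too, but they reached the filter through 1 line alone, so their fill is not read as a result. Called genes lie on both sides of 0 in all lists but the inactivation and transport list, where 2 of 4 tested genes are called, both lower. In the leukotriene conversion list the only called gene above 0 is Ggt5. Pla2g4f is farthest right at 4.00.

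Across the 12 libraries the genes whose centred and scaled log2 profile was nearest to that of Ptgs2 were Stk38l, Adgrg6 and Nos2, the inducible nitric oxide synthase, with root mean square differences of 0.0977, 0.105 and 0.107. Without scaling to equal spread they were Il12b, which encodes a subunit shared by interleukins 12 and 23, Arhgap10 and Oasl1, at 0.455, 0.544 and 0.718. For Alox15 the nearest scaled profiles were those of Scel, Fgr and Plpp2 (0.0527, 0.0608 and 0.0675) and the nearest unscaled ones those of Myb, Klrb1f and Kbtbd11 (0.291, 0.312 and 0.331). The first principal component of the 12 libraries, which separated the 2 lines, held 83.8% of the variance of the 25% most variable genes. Every gene that follows the line shares that division.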

How the data were processed

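The 12 libraries were prepared with a stranded mRNA kit, and the deposited values were raw read counts per gene. Per the study's methods, the authors aligned reads to mm10 with STAR, sorted them with SAMtools and counted read 5′ ends over the exon union of Ensembl genes with featureCounts. Use of the strand in counting is not given in the sources used here. A read with several equally good locations was kept at 1 of them, which can blur close paralogs.

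From these counts, the authors' published model was refitted with edgeR 4.0.16 in R 4.3.3. Genes with log2 CPM above 0 in at least 2 libraries were kept (14079 genes), TMM factors were applied, and a quasi-likelihood test was run on all 4 groups together with the replicate number as a covariate. Groups came from the sample titles. P-values were adjusted over all genes by Benjamini-Hochberg, and genes under 0.05 were called, with no limit on fold. CPM values use TMM-scaled library sizes, and CPM per kb divides by the exon length of GENCODE genes on GRCm38, the same build as mm10 but not the annotation used for counting. A count of 3 per library was taken as the floor, which covers counting error only. No fold is printed for a gene under it in either line. Positions and symbols came from the same annotation, and 55141 of 55401 genes had a symbol. Of the listed symbols, 1 (Dpep2) had more than 1 gene model, and the one with more counts was used.

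The 10 genes, the 95 pathway genes and the marker genes were chosen with earlier results of these data known, and the lists are not independent evidence. All 10 genes were named. Pathway genes were named where the adjusted p was under 0.05 and the log2 difference at least 1, at most 5 a list. The 3 nearest profiles were taken by root mean square difference of log2 CPM with a prior count of 3. Same-numbered OVA-pulsed CtrV and EKO libraries deviated together (correlations of 0.45, 0.30 and 0.30), as did unpulsed and pulsed EKO libraries (0.71, 0.36 and 0.42). Unpulsed CtrV and EKO libraries did so in replicate 3 only (0.07, -0.01 and 0.27). Unpulsed and pulsed CtrV libraries did so unevenly (0.09, 0.18 and 0.38). The block was kept as in the study's methods. No pair of replicates looked like repeat deposits of 1 library (a chi-square of the counts divided by its degrees of freedom was 4.86 or more in every pair). The scripts were tested on simulated data. Alternatives were no replicate block, RLE and upper-quartile scaling, DESeq2 1.42.0, limma voom (limma 3.58.1), bias-adjusted deviances, no filter, at least 10 counts in every library, stricter p and fold limits, only the groups compared, and leaving out each library and each replicate number.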

Additional observations from a re-analysis of the deposited data

How the results depend on the processing

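A limit of at least 1 on the absolute log2 difference left 16 of the 37 pathway genes called between the lines when pulsed and 15 of the 41 when unpulsed, because that limit removes smaller differences by construction. Under the other settings the counts were 34 to 40 pulsed and 35 to 42 unpulsed. With libraries of the groups compared or replicate numbers left out they were 32 to 38 and 33 to 41. Without the replicate block they were 34 and 38, so the pairing of replicate numbers moved them by less than 1.5 times, and the block changed no count of called enzyme genes in the pulsing comparisons, which stayed at 0 under every alternative run. Calls between the lines over all genes moved as well, from 6619 pulsed and 6537 unpulsed of 14079. With libraries of the groups compared or replicate numbers left out they were 4403 of 13965 to 5973 of 14064 pulsed. Unpulsed they were then 4488 of 13958 to 6089 of 14044. With a library of the other groups left out they were 6362 of 14052 to 6993 of 14045 pulsed. Unpulsed that range was 6164 of 14054 to 6476 of 14066. Under the other settings they were 5413 to 6799 pulsed and 4747 to 6774 unpulsed, the stricter p and fold limits not counted. With replicate 1 left out, 4 genes of the whole table were called for pulsing in EKO cells and 5 for the dependence on pulsing, none of them among the 9 enzyme genes. No value changed direction among those called. Of 322 values of the line difference of the 9 genes, 4 moved by more than the spread between replicate pairs. These were Pla2g4a pulsed (0.55 with upper-quartile scaling, 0.54 without EKO pulsed replicate 2) and Alox5 unpulsed (-0.18 with upper-quartile scaling, -0.16 without CtrV unpulsed replicate 2), and the cause was not tested. The limit was each gene's own SD of the differences between replicate pairs, so it was wide for genes with scattered replicates. Ptgs2 pulsed went from 5.13 to 5.74 without CtrV pulsed replicate 1 and stayed within its limit. Tbxas1 failed the filter once replicate 1 was left out and then had no value. Depth limits Ptges, at 0 to 6 counts, and Hpgd in EKO, at 7 to 20 counts. Protein, enzyme activity and lipid products were not measured in these data.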
